A study of Mus musculus with 12 samples.

Results

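Adherens junctions are the cell-to-cell contacts that couple the actin cytoskeleton of neighbouring cells. In the epidermis their core has the classical cadherins E-cadherin (Cdh1) and P-cadherin (Cdh3), which bind the same cadherins on the next cell. Their tails hold beta-catenin (Ctnnb1) and p120-catenin (Ctnnd1), and beta-catenin in turn holds the actin-linking alpha-catenin (Ctnna1). A parallel adhesion system uses the immunoglobulin-like nectins (here Nectin1, Nectin2 and Nectin4), whose tails bind the actin adaptor afadin (Afdn). The genes described here are these 9, chosen by name among the 54532 genes of the count table, and all 9 were among the 13571 genes with enough counts to be tested.

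The libraries came from cultured mouse keratinocytes that expressed DP(1-584)-BirA, an amino-terminal part of the desmosomal protein desmoplakin fused to a biotin ligase. In all groups calcium and doxycycline (2 µg/mL) were given at confluence, the latter to switch the fusion on, and biotin was given for 16 h. Cells were scratch wounded or left unwounded before the biotin, and the translating fraction of a sucrose gradient was passed over neutravidin. RNA held by the resin is the cortical fraction, and RNA of the depleted remainder is the total fraction, which gave 4 groups (unwounded total, unwounded cortical, wounded total, wounded cortical) of 3 libraries each. All 12 libraries thus carry the fusion, and no group lacked the ligase or the biotin. The labels number the libraries as biological replicates but do not say whether they came from separate cultures, and p-values measure the spread between these libraries only. Whether the cells were primary or a line, and of how many clones, is not given in the sources used here.

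Total counts ran from 8980013 to 23457548 per library. The 9 genes had 210 to 5396 counts in a library, so that counting error alone was at most 6.90% of a value. Of 10 keratinocyte markers, all were detected. Krt5 and Krt14 averaged 5964 and 7672 CPM. CPM are counts relative to library size, scaled by TMM factors, which adjust for differences in composition between libraries. Krt1, a marker of differentiated layers, averaged 1.05 CPM, while Krt10, also on this list, was at 15.99 to 32.67 CPM. The summed level of the keratinocyte list differed between groups, at 10841 to 11913 CPM in the unwounded total, 15163 to 15313 in the unwounded cortical, 17345 to 19892 in the wounded total and 20510 to 20846 in the wounded cortical libraries. Its part in the results was not tested. Markers of fibroblasts (8 genes, at most 6.47 CPM summed), melanocytes (8 genes, at most 10.4), immune cells (8 genes, at most 0.285) and endothelium (6 genes, at most 2.77) were low. Of these, Dcn, Thy1, Tyr, Tyrp1, Kit, Cd207, H2-Aa, Itgam, Csf1r, Adgre1, Cdh5 and Emcn had 0 counts in all 12 libraries. The highest of the detected ones were Mitf (2.02 to 9.15 CPM), Pdgfra (at most 5.87 CPM) and Pmel (at most 2.27 CPM), and Col1a1 and Pecam1 were above 0 in every library. Their part in the results was not tested. Desmoplakin mRNA (Dsp) was at 189 to 228 CPM in unwounded total and 283 to 488 CPM in the other libraries, but whether reads of the fusion were counted under Dsp is not given in the sources used here.

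One library stood apart from the others. Only 13117 genes were detected in wounded total replicate 1, where each of the other 11 libraries detected 14393 to 16867. Its TMM factor was 1.054, where replicates 2 and 3 of its group had 0.843 and 0.831 and wounded cortical libraries 1.046 to 1.066. Mitochondrial genes gave 2.56% of its counts. That share was 3.51% and 3.15% in replicates 2 and 3, and 2.40% to 2.47% in wounded cortical libraries. Of genes with an expected 10 to 20 counts, 32.7% were at 0 in it, the highest share of all libraries. What set this library apart was not tested. Relative to the mean of the other wounded total libraries, its level was 2.07 times for Ctnnb1, 1.52 times for Cdh3, 1.40 times for Afdn and 1.36 times for Cdh1. It was 0.951 to 1.03 times for the other 5 genes. Of 8044 genes with a mean of at least 10 CPM, 1.88% had a higher ratio than Ctnnb1. The share was 8.63% for Cdh3, 12.9% for Afdn and 14.9% for Cdh1, so many other genes had ratios as high as these. Values between groups that moved with this library are given with and without it.

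The sequences that distinguish the nectins at the afadin-binding end of the protein are the last codons of their messages. The last 30 coding bases, stop codon included, are shown 5′ to 3′ for the transcript with the longest coding sequence of each gene in GENCODE M21 (GRCm38). Capitals mark the 4 codons before the stop, which encode the carboxy terminus, and in each gene the bases lie in 1 exon. They lie on chromosome 9 from 43803987 to 43804016 (plus strand) for Nectin1, on chromosome 7 from 19717515 to 19717544 (minus strand) for Nectin2, and on chromosome 1 from 171386776 to 171386805 (plus strand) for Nectin4.
Nectin1: ttcatttccaagaaaGAGTGGTATGTGtag
Nectin2: ttttttgtgtcacggGCCATGTATGTGtga
Nectin4: tacatcaacgggcgaGGGCACCTGGTCtga
Nectin1 and Nectin2 shared 8 of these 12 bases, while Nectin4 shared 4 with Nectin1 and 3 with Nectin2. The counts are per gene and cannot separate isoforms, of which the annotation lists 2 coding ends for Nectin2 and Afdn, 3 for Ctnnd1 and 1 for each of the others. The longest exact run shared by 2 coding sequences was 16 bases between Cdh1 and Cdh3 and 11 to 13 bases between nectins. Genes overlapping the 9 on the opposite strand, which these non-directional libraries could mix in, had at most 60 counts in a library (Gm30015, within Nectin1, against up to 5396 for Nectin1).

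Levels of different genes were compared as deposited FPKM (fragments scaled by gene length and library size). The deposited gene length is 10223 bases for Afdn, 5192 for Ctnnb1 and 3698 for Ctnna1. The transcripts with the longest coding sequence have 5684, 3623 and 3733 bases. The order of genes and the ratios between them depend on this choice of length, and were not recomputed with transcript lengths. Alpha-catenin was the most abundant of the 9 mRNAs in every group, at 38.0 ± 3.36 FPKM (SD, n = 3) in the unwounded total fraction. Nectin1 followed at 32.8 ± 2.82, with a range that overlapped that of Ctnna1, and then Nectin2 at 20.6 ± 1.26. Ctnnb1 (9.10 ± 1.28), Cdh1 (7.13 ± 0.450) and Cdh3 (5.76 ± 0.644) formed a middle tier whose ranges did not overlap. Ctnnd1 (3.47 ± 0.262), Nectin4 (3.29 ± 0.186) and Afdn (2.98 ± 0.510) were lowest, and the ranges of neighbours in that order overlapped. Ctnna1, Nectin1 and Nectin2 kept the top 3 ranks in all 4 groups, while Nectin4 moved from rank 8 in the unwounded total to rank 6 in the unwounded cortical fraction, where its 8.08 ± 0.448 FPKM exceeded Cdh3 (7.10 ± 0.245) with no overlap. The FPKM of Ctnna1 was 4.21 ± 0.487 times that of Ctnnb1 in the unwounded total fraction, and that of Ctnnb1 was 0.706 ± 0.0810 times the sum of Cdh1 and Cdh3. Afadin mRNA was at 0.0524 ± 0.00668 of the summed nectins, and this ratio lay between 0.0447 and 0.0789 in all 12 libraries.

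**Figure D1:**
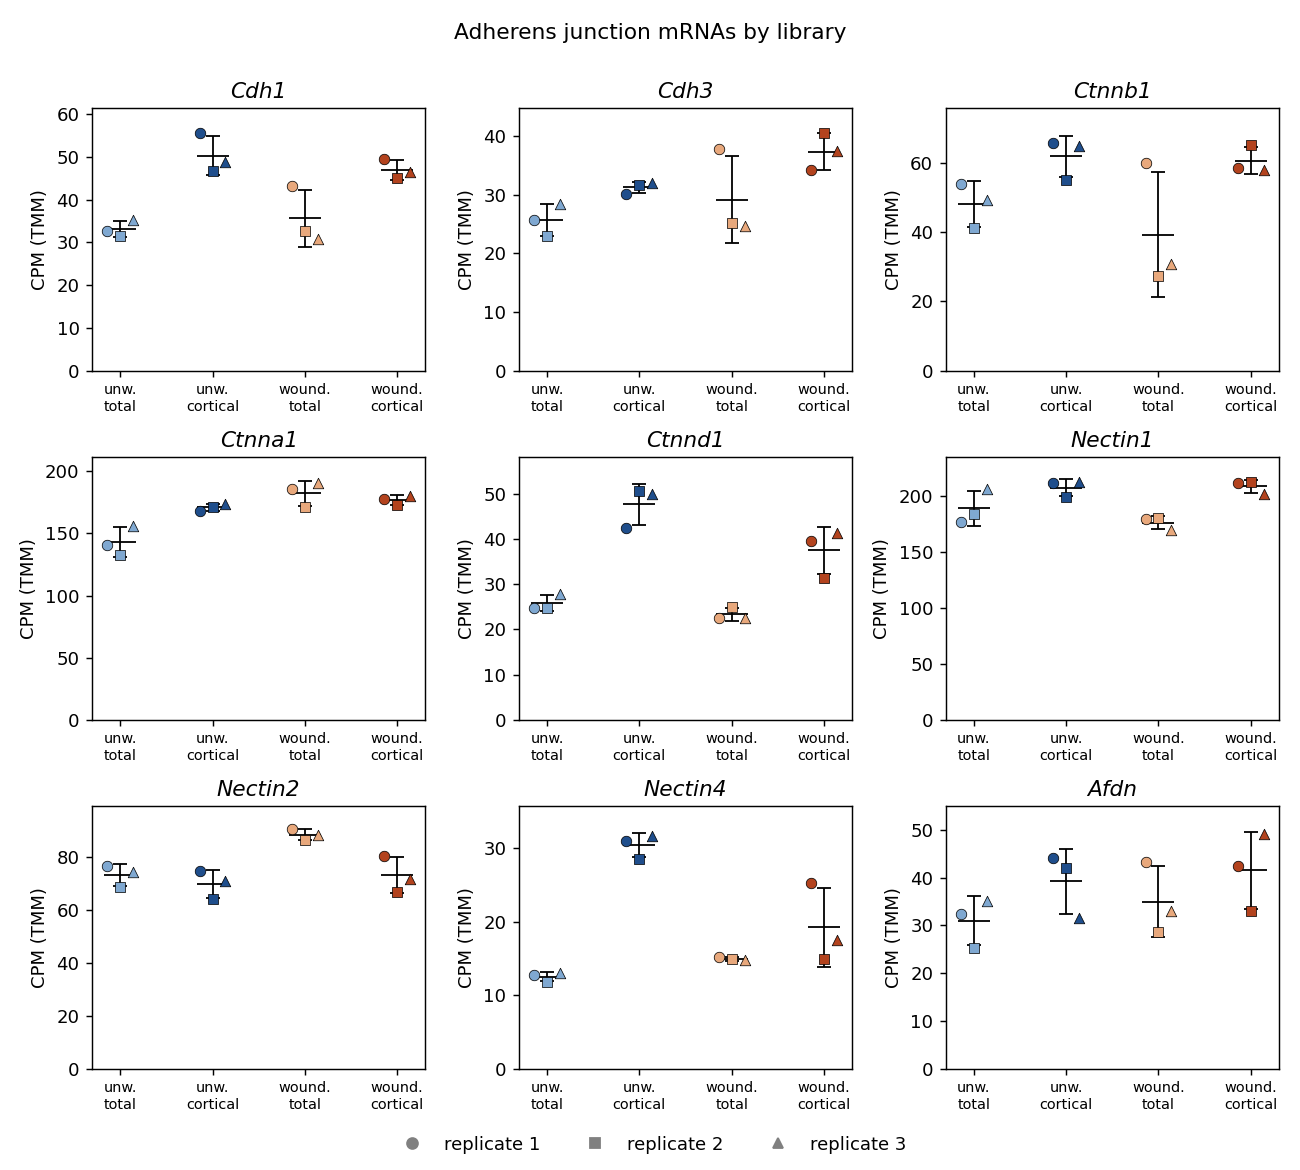
Level of each of the 9 mRNAs in CPM (TMM-scaled, linear axis from 0) in the 12 libraries, by group (unw., unwounded; wound., wounded). Points are libraries with a symbol per replicate number, bars the mean ± SD of 3. Nectin4 and Ctnnd1 sit higher in unwounded cortical than in unwounded total libraries without overlap, and the circle of wounded total replicate 1 stands above the other wounded total libraries for Cdh1, Cdh3, Ctnnb1 and Afdn.

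In unwounded cells the question was which of the 9 mRNAs made up more of the RNA held by the resin than of the remainder. Nectin4, Ctnnd1 and Cdh1 rose, the other 6 did not pass, and 0 fell. That is 3 of 9 genes called, where 14.2% of all tested genes were called, 6.62% higher and 7.59% lower. The median log2 fold change of the 9 was 0.34, against 0.00 over all genes tested. The share of counts from mitochondrial genes also differed between these groups, at 6.02% to 9.08% in the total and 3.79% to 3.94% in the cortical libraries. Of genes with an expected 10 to 20 counts, 0.506% to 5.05% were at 0 in the total and 4.40% to 24.8% in the cortical libraries, whereas the 9 genes had at least 210 counts. The part of these measures in the results was not tested.

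Among the nectins, Nectin4 (ENSMUSG00000006411, chromosome 1, 171370099 to 171388598), best known from embryonic and tumour epithelia, was at 12.7, 11.9 and 13.1 CPM in the unwounded total libraries and at 30.9, 28.5 and 31.6 CPM in the unwounded cortical ones. Every cortical library was thus above every total library, with no overlap. Its log2 fold change was 1.28 (SE 0.18, edgeR quasi-likelihood test, Benjamini-Hochberg adjusted p = 2.85e-04), a 2.42-fold difference, which lay at percentile 97.996 of all genes tested. Nectin1 (ENSMUSG00000032012, chromosome 9, 43743984 to 43807461), a widely expressed nectin of epidermis and also a herpesvirus entry receptor, was at 176, 184 and 206 CPM in the total and 211, 198 and 212 CPM in the cortical libraries. These ranges overlapped, and the difference was 0.13 (SE 0.09, adjusted p = 0.425). Nectin2 (ENSMUSG00000062300, chromosome 7, 19716644 to 19750483) was at 76.6, 68.6 and 74.1 CPM in the total and 74.6, 64.1 and 70.8 CPM in the cortical libraries, which again overlapped. Its difference was -0.06 (SE 0.10, adjusted p = 0.785), and it was 0.12 with an adjusted p of 0.624 when libraries were scaled by total count alone, which shifted the median of all genes by 0.187.

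In terms of composition, Nectin4 made up 5.71% to 5.997% of the summed nectin FPKM in the unwounded total libraries and 12.3% to 12.8% in the unwounded cortical ones. The share of Nectin2 was lower, at 34.7% to 38.8% in the total and 30.1% to 31.9% in the cortical libraries. The shares of a library add up to a whole, so a larger share of Nectin4 leaves less for the others. The level of Nectin2 itself did not differ detectably (-0.06, adjusted p = 0.785 by edgeR). The share of Nectin1 overlapped between fractions (55.2% to 59.6% and 55.8% to 57.5%). These shares do not depend on the scaling of libraries, since the 3 genes are compared within each library.

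**Figure D2:**
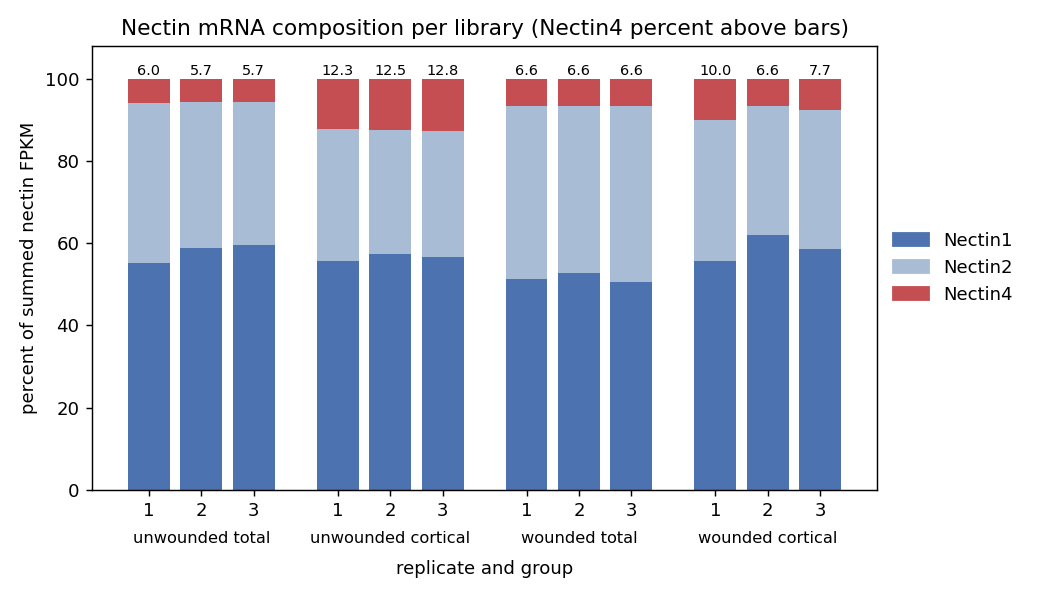
Share of Nectin1, Nectin2 and Nectin4 in the summed FPKM of the 3 nectins (percent, stacked bars from 0), 1 bar per library, with the Nectin4 percent printed above. Nectin4 takes 12.3% to 12.8% in the 3 unwounded cortical libraries, 5.71% to 6.65% in all total libraries, and 6.58% to 10.03% in the wounded cortical libraries.

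Among the catenins, Ctnnd1 (ENSMUSG00000034101, chromosome 2, 84600071 to 84650765), whose protein holds cadherins at the membrane, was at 24.8, 24.7 and 27.9 CPM in the unwounded total and 42.5, 50.7 and 49.9 CPM in the unwounded cortical libraries. The groups did not overlap, and its log2 fold change was 0.88 (SE 0.13, adjusted p = 5.47e-04 by the edgeR quasi-likelihood test). Ctnna1 (ENSMUSG00000037815, chromosome 18, 35118888 to 35254773) was at 140, 133 and 156 CPM in the total and 168, 171 and 174 CPM in the cortical libraries. Its groups did not overlap either, but the difference of 0.26 (SE 0.09) missed the threshold with an adjusted p of 0.0811. It was called in 7 of the 12 alternative settings, where its adjusted p ran from 0.00758 to 0.177. Ctnnb1 (ENSMUSG00000006932, chromosome 9, 120929216 to 120960507), both an adhesion protein and the transcriptional co-activator of Wnt signalling, was at 54.0, 41.1 and 49.2 CPM in the total and 65.8, 55.01 and 64.7 CPM in the cortical libraries. The lowest cortical value lay just above the highest total value, and the difference was 0.36 (SE 0.21, adjusted p = 0.314).

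The classical cadherin genes Cdh1 (ENSMUSG00000000303, chromosome 8, 106603351 to 106670246) and Cdh3 (ENSMUSG00000061048, chromosome 8, 106510891 to 106557297) are neighbours in the genome. Cdh1 was at 32.6, 31.6 and 35.3 CPM in the unwounded total and 55.5, 46.7 and 48.7 CPM in the unwounded cortical libraries. It rose without overlap, by 0.60 on the log2 scale (SE 0.13, adjusted p = 0.00633 by the edgeR quasi-likelihood test). Cdh3 was at 25.7, 23.0 and 28.4 CPM in the total and 30.1, 31.6 and 31.9 CPM in the cortical libraries. Its values did not overlap, but the difference of 0.28 (SE 0.16) had an adjusted p of 0.295. Within libraries, the ratio of Cdh3 to Cdh1 FPKM was 0.758 to 0.840 in the unwounded total and 0.567 to 0.706 in the unwounded cortical group, with no overlap.

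The adaptor Afdn (ENSMUSG00000068036, chromosome 17, 13760539 to 13906150), which links nectins to actin, was at 32.5, 25.3 and 35.2 CPM in the unwounded total and 44.1, 41.9 and 31.5 CPM in the unwounded cortical libraries. Replicate 3 of the cortical group lay within the range of the total group, and the difference was 0.34 (SE 0.19, adjusted p = 0.264). Afdn and Nectin2 mark the ends of the range of deposited gene length among the 9 genes, at 10223 and 3494 bases, with Nectin4 at 3746. Each value was also recomputed with the trend over gene length removed from every library. Nectin4 was then at 1.30, Ctnnd1 at 0.75 and Cdh1 at 0.57, all still called (adjusted p = 2.21e-04, 0.00204 and 0.00868), and Ctnna1 was called as well (0.29, adjusted p = 0.0489). Afdn went from 0.34 to 0.15 and Nectin1 from 0.13 to 0.05. Without wounded total replicate 1, which is in neither group but enters the shared fit and filter, 5 of the 9 passed (Ctnnb1 and Ctnna1 in addition, adjusted p = 0.0261 and 0.0286), where 22.4% of all genes were called.

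After wounding, the cortical fraction was again set against the total fraction, with other libraries than above. Only Ctnnd1 of the 9 genes was called, where 15.7% of all tested genes were called, 7.62% higher and 8.03% lower. The median log2 fold change of the 9 was 0.36, against 0.04 over all genes. Ctnnd1 was at 22.6, 25.0 and 22.5 CPM in the wounded total and 39.6, 31.4 and 41.3 CPM in the wounded cortical libraries. It was the 1 gene of the 9 called in both treatments, without overlap in either, and its log2 fold change in wounded cells was 0.68 (SE 0.13, adjusted p = 0.00328 by edgeR), or 0.48 (adjusted p = 0.0338) with the length trend removed.

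Cdh1 was at 43.3, 32.7 and 30.8 CPM in the wounded total and 49.6, 45.03 and 46.4 CPM in the wounded cortical libraries. Its groups did not overlap, but its difference of 0.40 (SE 0.13) just missed the threshold (adjusted p = 0.0509), and without wounded total replicate 1 it was 0.56 (adjusted p = 0.00171). Cdh3 was at 37.7, 25.1 and 24.6 CPM in the wounded total and 34.2, 40.4 and 37.4 CPM in the wounded cortical libraries. Here replicate 1 of the total group lay within the cortical range, and the difference was 0.36 (adjusted p = 0.147), or 0.58 (adjusted p = 0.00326) without it.

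Ctnnb1 was the gene that moved most with that library. It was at 59.9, 27.2 and 30.8 CPM in the wounded total and 58.6, 65.0 and 58.0 CPM in the wounded cortical libraries, so that replicates 2 and 3 of the total group were far below every cortical library and replicate 1 was among them. The log2 fold change was 0.62 (SE 0.21, adjusted p = 0.0588 by edgeR) with all libraries. Without wounded total replicate 1 it was 1.06 (adjusted p = 2.17e-06), without replicate 2 it was 0.41 (adjusted p = 0.246) and without replicate 3 it was 0.47 (adjusted p = 0.199). Without replicate 1 of that group 5 of the 9 passed (Cdh1, Cdh3, Ctnnb1, Ctnnd1 and Nectin1), where 24.7% of all genes were called.

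The nectins differed among themselves in wounded cells. Nectin1 was at 179, 180 and 169 CPM in the total and 211, 213 and 201 CPM in the cortical libraries, without overlap, and its difference was 0.24 (SE 0.09, adjusted p = 0.0941). Nectin2 was at 90.4, 86.3 and 88.3 CPM in the total and 80.4, 66.9 and 71.8 CPM in the cortical libraries. Here every cortical value was the lower, and the difference was -0.27 (SE 0.10, adjusted p = 0.0814). It was -0.06 (adjusted p = 0.777) under scaling by total count alone, and was called with DESeq2 and voom (adjusted p = 0.0408 and 0.0446). Nectin4 was at 15.3, 14.9 and 14.7 CPM in the total and 25.2, 14.97 and 17.4 CPM in the cortical libraries. Replicate 2 of the cortical group lay within the range of the total group and the other two lay above it, and the difference was 0.36 (SE 0.18, adjusted p = 0.183), or 0.12 (adjusted p = 0.720) without wounded cortical replicate 1.

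Ctnna1 and Afdn did not differ detectably between the fractions of wounded cells. Ctnna1 was at 186, 171 and 190 CPM in the total and 177, 173 and 180 CPM in the cortical libraries, with a difference of -0.05 (SE 0.09, adjusted p = 0.809) that became 0.17 under scaling by total count alone. Afdn was at 43.3, 28.7 and 33.0 CPM in the total and 42.5, 33.1 and 49.1 CPM in the cortical libraries. Its groups overlapped widely, and its difference was 0.25 (SE 0.19, adjusted p = 0.414), -0.02 with the length trend removed and 0.43 (adjusted p = 0.0756) without wounded total replicate 1.

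**Figure D3:**
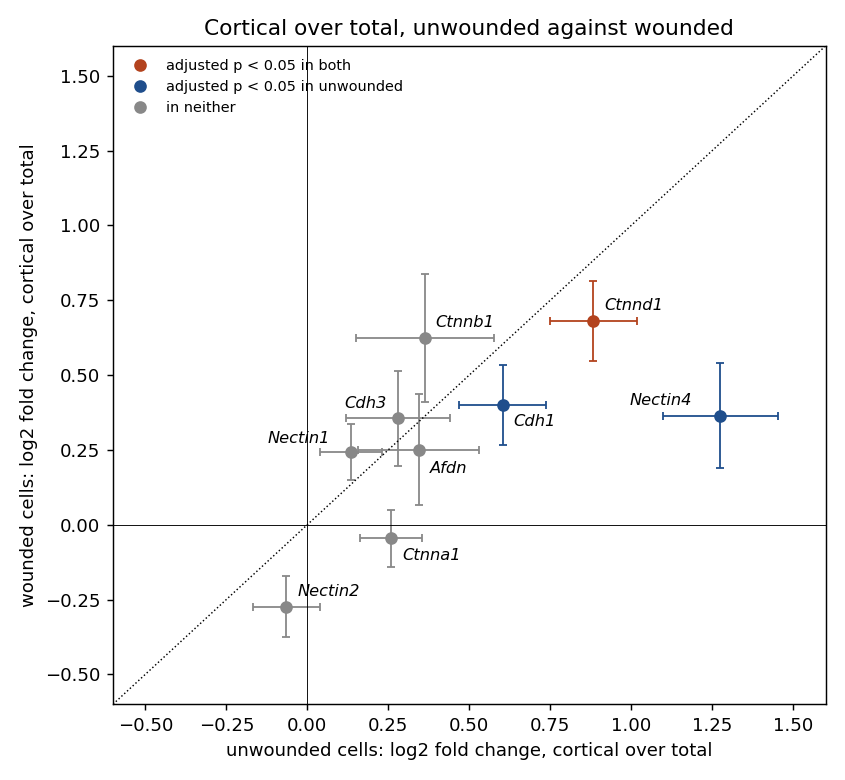
Log2 fold change of the cortical over the total fraction in unwounded (x axis) and wounded cells (y axis) for the 9 genes, with SE bars from the edgeR fit; the dotted line marks equal values and colour the calls at an adjusted p under 0.05. Ctnnd1 is called in both treatments, and Nectin4 lies farthest from the line (1.28 and 0.36).

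Wounded and unwounded cells were then compared within each fraction, using the same 12 libraries again, so that these differences share their libraries with those between fractions. In the total fraction alpha-catenin mRNA rose and was the only 1 of the 9 genes called, where 15.6% of all tested genes were called, 8.39% higher and 7.2% lower. The median log2 fold change of the 9 was 0.17, against -0.03 over all genes. Ctnna1 went from 140, 133 and 156 CPM in unwounded to 186, 171 and 190 CPM in wounded libraries. All wounded values were above all unwounded ones, with a log2 fold change of 0.35 (SE 0.09, adjusted p = 0.0188 by edgeR). The call was lost when libraries were scaled by total count (0.27, adjusted p = 0.136), when only the groups compared were fitted (0.36, adjusted p = 0.0826) and when unwounded total replicate 1, unwounded total replicate 2 or wounded total replicate 3 was left out (0.29 to 0.33, adjusted p from 0.0737 to 0.09996). In bulk samples such as these, fewer cells of a type and less RNA per cell cannot be told apart.

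Ctnnb1, the binding partner of alpha-catenin, lay in the opposite direction, and its value moved with each of the wounded total libraries. Its unwounded total values of 54.0, 41.1 and 49.2 CPM stood against wounded values of 59.9, 27.2 and 30.8 CPM, where replicate 1 was above and replicates 2 and 3 were below every unwounded library. The difference was -0.29 (SE 0.21, adjusted p = 0.403 by edgeR) with all libraries and -0.73 (adjusted p = 2.25e-04) without wounded total replicate 1. Leaving out wounded total replicate 2 or 3 gave -0.0892 (adjusted p = 0.847) and -0.15 (adjusted p = 0.739) instead. The within-library ratio of Ctnna1 to Ctnnb1 FPKM was 3.65 to 4.54 in the unwounded total group. In the wounded total group it was 4.35 in replicate 1 and 8.84 and 8.69 in replicates 2 and 3, and it was 3.59 to 4.37 in all cortical libraries. Without wounded total replicate 1, 2 of the 9 genes passed (Ctnna1 and Ctnnb1), where 24.9% of all genes were called.

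Nectin2 and Nectin4 had higher values in every wounded total library than in any unwounded one, but missed the threshold. How many of all tested genes had groups without overlap is not given here. Nectin2 was called in 6 of the 12 alternative settings (adjusted p from 0.0319 to 0.364). It went from 68.6 to 76.6 CPM up to 86.3 to 90.4 CPM, a difference of 0.27 (SE 0.10, adjusted p = 0.0827), and Nectin4 from 11.9 to 13.1 CPM up to 14.7 to 15.3 CPM, a difference of 0.26 (SE 0.18, adjusted p = 0.381). Nectin1 (-0.10), Ctnnd1 (-0.14), Cdh1 (0.10), Cdh3 (0.18) and Afdn (0.17) overlapped between treatments, with adjusted p from 0.502 to 0.676. Without wounded total replicate 1, the values of Cdh1, Cdh3 and Afdn turned to -0.06, -0.05 and -0.01.

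Within the cortical fraction, the comparison of wounded with unwounded cells called 0 of the 9 genes by the edgeR quasi-likelihood test, where 2.48% of all tested genes were called, 1.6% higher and 0.884% lower. Nectin4 and Ctnnd1 were lower in every wounded than in any unwounded cortical library (unadjusted p = 0.00165 and 0.0194 by edgeR). The share of all tested genes with such an unadjusted p, or with groups that do not overlap, is not given here. DESeq2 called 1 of the 9. Nectin4 went from 30.9, 28.5 and 31.6 CPM to 25.2, 14.97 and 17.4 CPM, a log2 difference of -0.66 (SE 0.17, adjusted p = 0.0571). It was called in 6 of the 12 alternative settings beside left-out libraries, where the adjusted p ran from 0.0114 to 0.0903, and without wounded total replicate 1 (adjusted p = 0.0149), a library in neither group of this contrast. With that library left out 9.07% of all genes were called. It was also called without wounded cortical replicate 1 (-0.90, adjusted p = 0.0189), while leaving out any other library gave no call (adjusted p up to 0.206). Ctnnd1 went from 42.5, 50.7 and 49.9 CPM to 39.6, 31.4 and 41.3 CPM, a difference of -0.34 (SE 0.13, adjusted p = 0.186).

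Cdh3 was the 1 gene of the 9 whose cortical values were higher in every wounded library, at 34.2 to 40.4 CPM against 30.1 to 31.9 CPM, with a difference of 0.26 (SE 0.16, adjusted p = 0.442). The cortical values of the other 6 genes (Cdh1, Ctnnb1, Ctnna1, Nectin1, Nectin2 and Afdn) overlapped between treatments. Their differences lay between -0.10 (Cdh1) and 0.08 (Afdn). The ratio of Cdh3 to Cdh1 FPKM was 0.567 to 0.706 in the unwounded and 0.719 to 0.937 in the wounded cortical libraries, without overlap. In the wounded total libraries it was 0.79995 to 0.910, a range that overlapped that of the wounded cortical libraries.

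The difference between the cortical-to-total ratios of wounded and unwounded cells was tested by the interaction term of the same fit. It called 0 of the 9 genes by edgeR and 17 genes (0.125%) in all, 0.0221% higher and 0.103% lower. DESeq2 also called 0 of the 9. Nectin4 had the largest value of the 9, at -0.91 (SE 0.25, unadjusted p = 0.00206, adjusted p = 0.285), the gap between 1.28 in unwounded and 0.36 in wounded cells. Ctnna1 was at -0.30 (SE 0.13, unadjusted p = 0.0365, adjusted p = 0.514), and no other of the 9 had an unadjusted p under 0.05. The share of all genes at that unadjusted threshold is not given here. Cdh1 was at -0.20, Cdh3 at 0.08, Nectin1 at 0.11, Nectin2 at -0.21 and Afdn at -0.09. For Ctnnb1 the value was 0.26 (SE 0.30, adjusted p = 0.864) with all libraries and 0.70 (adjusted p = 0.0290) without wounded total replicate 1, when 2.93% of all genes were called and Ctnnb1 was the only 1 of the 9 called. It was 0.0308 (adjusted p = 0.989) without replicate 2 and 0.0917 (adjusted p = 0.960) without replicate 3 of the same group. The interaction of Ctnnd1 was -0.20 (SE 0.19, adjusted p = 0.817), so its larger value in unwounded cells was within about 1 SE of its value in wounded cells.

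**Figure D4:**
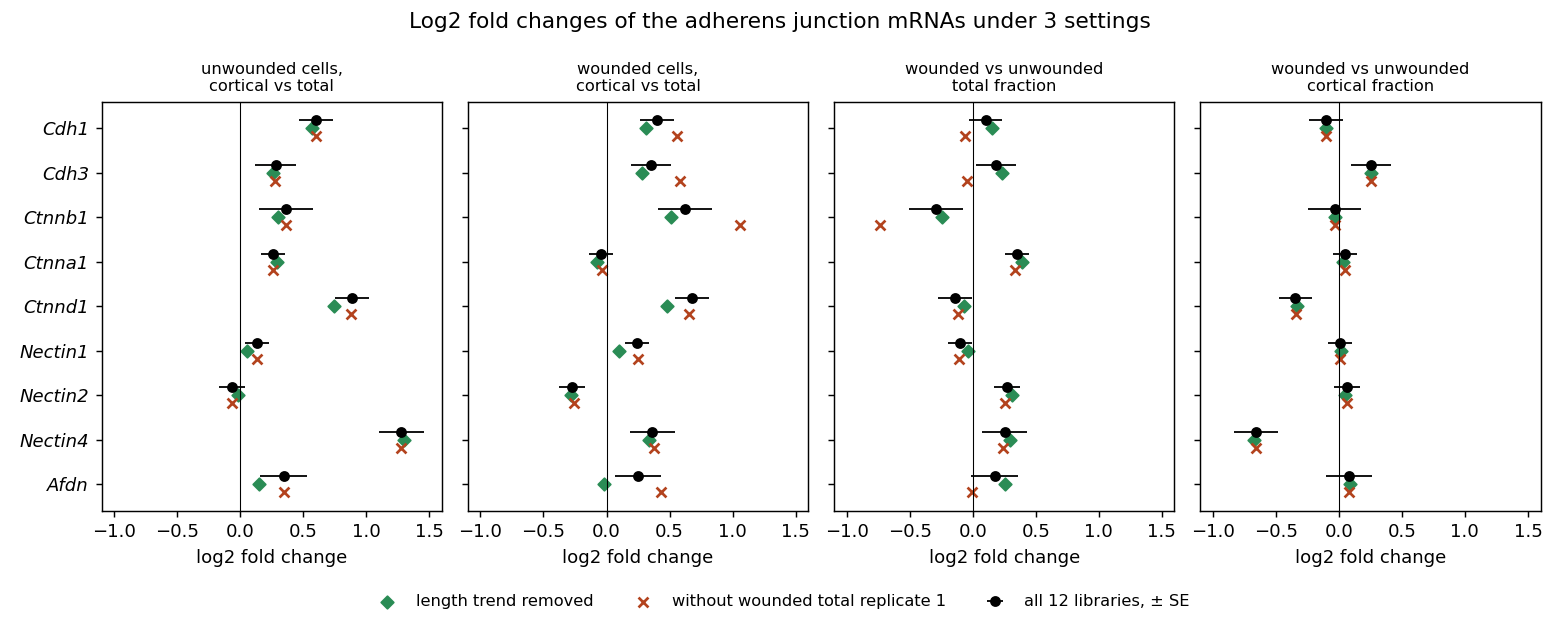
Log2 fold changes of the 9 genes in the 4 pairwise comparisons (1 panel each) with all 12 libraries (black, ± SE), with the gene length trend removed (green diamonds) and without wounded total replicate 1 (red crosses). Leaving out that library moves Ctnnb1 most (from 0.62 to 1.06 and from -0.29 to -0.73), and removing the length trend moves Afdn to near 0 in wounded cells.

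Across the 12 libraries the 9 mRNAs did not vary as a block. The Pearson correlation of log2 CPM between 2 of them, a description over libraries that share groups and depth, ran from -0.61 to 0.88 over the 36 pairings, with a median of 0.48. Ctnnd1 went most closely with Nectin4 (0.88) and Cdh1 (0.81), and Cdh1 with Nectin4 (0.83). Nectin2 stood against Ctnnd1 (-0.61) and Nectin1 (-0.59), and Ctnna1 and Ctnnb1 had a correlation of 0.05. Over the 11 libraries without wounded total replicate 1 the range was -0.66 (Ctnnb1 and Nectin2) to 0.91 (Cdh1 and Ctnnd1), with a median of 0.53. Among 8847 other protein-coding genes averaging at least 100 counts, the profiles most like Cdh1 were those of Tnrc6c (0.97) and Tnrc6b (0.96), which encode scaffold proteins of microRNA silencing, and Slc7a1 (0.95), a cationic amino acid transporter. Closest to Ctnnb1 were the phosphatase gene Inppl1 (0.97), the chromatin remodeller gene Chd1 (0.97) and the nucleoporin gene Nup98 (0.95). Closest to Afdn were Arhgef19 (0.93), Bcr (0.90) and the transporter gene Slc12a9 (0.88). Without wounded total replicate 1 the correlations of these similar genes were 0.88 to 0.99, but only Inppl1 still ranked 1 and the ranks of the others ran from 2 to 21.

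Other components of adherens junctions were described with a list of 44 genes, of which 36 were tested. In unwounded cells 3 were higher and 2 lower in the cortical fraction (13.9% called, with a median of 0.14, against 14.2% and 0.00 over all genes). The higher ones were plakoglobin (Jup, 0.75, adjusted p = 2.40e-04), which can take the place of beta-catenin on cadherins, the microtubule minus-end protein gene Camsap3 (0.54, adjusted p = 0.0219) and the cadherin-shedding protease gene Adam10 (0.42, adjusted p = 0.0393). The lower ones were the p120 relative Ctnnd2 (-1.97, adjusted p = 0.0122), at a mean of 3.45 CPM in the total and 0.906 CPM in the cortical fraction, and the actin crosslinker gene Actn1 (-0.41, adjusted p = 0.0244). In wounded cells 4 were higher and 3 lower in the cortical fraction (19.4% called, against 15.7% over all genes). The largest increases were in Rapgef2 (1.38, adjusted p = 0.00866), an activator of the small GTPase Rap1, the junction scaffold gene Tjp1 (0.58, adjusted p = 0.0458) and Jup (0.48, adjusted p = 0.00461). The decreases were in Cdh13 (-0.40, adjusted p = 0.0490), a cadherin without a cytoplasmic tail, and in the actin-associated Zyx (-0.34, adjusted p = 0.0336) and Actn4 (-0.33, adjusted p = 0.0315). All p-values of the lists are edgeR quasi-likelihood values adjusted over the 13571 genes. For this list and the 2 that follow, values with the gene length trend removed are not given here. The part of gene length in their counts of calls was not tested.

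Between wounded and unwounded cells, 7 of the 36 partners rose in the total fraction and 5 fell (33.3% called, against 15.6% over all genes). The largest increases were in actin-side components, Actn4 (0.86, adjusted p = 3.03e-05) and Lima1 (0.85, adjusted p = 2.80e-05), which links alpha-catenin to actin, and in the scaffold gene Magi1 (0.66, adjusted p = 0.0474). The largest decreases were in Rapgef2 (-1.51, adjusted p = 0.00459), Rap1a (-0.76, adjusted p = 0.00978) and Tjp1 (-0.61, adjusted p = 0.0351). In the cortical fraction 4 rose and 0 fell (11.1% called, against 2.48%), led by Lima1 (0.57, adjusted p = 0.00407), Actn4 (0.55, adjusted p = 0.00613) and the phosphatase gene Ptpn1 (0.43, adjusted p = 0.0391). The interaction called 0. Without wounded total replicate 1, 11, 12, 15, 8 and 0 of 37 tested were called in the order of the 5 comparisons, where 22.4%, 24.7%, 24.9%, 9.07% and 2.93% of all genes were.

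A second list held 24 genes of beta-catenin turnover and TCF/LEF-dependent transcription, of which 23 were tested. In unwounded cells 5 were higher and 1 lower in the cortical fraction (26.1% called, with a median of 0.19, against 14.2% and 0.00 over all genes). The largest increases were in the co-activator gene Bcl9l (0.89, adjusted p = 1.92e-04), the Wnt co-receptor gene Lrp6 (0.76, adjusted p = 0.00205) and Apc (0.54, adjusted p = 0.0331), which encodes the scaffold of beta-catenin destruction. Ctnnbip1, which encodes a small inhibitor of beta-catenin, was lower (-0.65, adjusted p = 0.0157). In wounded cells 6 were higher and 1 lower (30.4% called, against 15.7% over all genes), again with Bcl9l (1.02, adjusted p = 1.17e-04), Apc (0.98, adjusted p = 0.00118) and Lrp6 (0.63, adjusted p = 0.00700) above and Ctnnbip1 (-0.60, adjusted p = 0.0229) below. Wounding lowered Apc (-0.63, adjusted p = 0.0172) and Bcl9l (-0.48, adjusted p = 0.0110) in the total fraction, where 0 rose (8.70% called, against 15.6% over all genes), and 0 were called in the cortical fraction or for the interaction. With wounded total replicate 1 left out, 9, 11, 6, 4 and 1 of 23 were called, beside the same shares of all genes (22.4%, 24.7%, 24.9%, 9.07% and 2.93%).

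Genes of the mesenchymal switch, in which E-cadherin is replaced by N-cadherin, were mostly low. N-cadherin mRNA (Cdh2) had at most 1 count in any library, Vim at most 18, and Snai1 and Twist2 0 in all 12. Acta2 reached at most 0.469 CPM, Fn1 2.85 CPM and S100a4 7.85 CPM. Among repressors of Cdh1, Zeb1 and Zeb2 reached at most 0.665 and 1.12 CPM, while Snai2 was at 33.9 to 52.5 CPM and Twist1 at 55.9 to 99.6 CPM. Of the 6 genes of this list of 11 that were tested, Twist1 was higher in the unwounded cortical than in the unwounded total fraction (0.44, adjusted p = 0.00889) and higher in wounded than in unwounded cells in the total fraction (0.45, adjusted p = 0.00784). In each of these comparisons that was 1 of 6 genes (16.7%), where 14.2% and 15.6% of all tested genes were called. No other gene of the list was called in any of the 5 comparisons.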

How the data were processed

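Poly-T selected, non-directional messenger RNA libraries were sequenced, per the labels' protocols. HISAT2, CASAVA and the build mm10 are named in the submitters' processing notes, while the counting tool and annotation release are not given in the sources used here. The authors deposited raw fragment counts and FPKM with 1 column per library. Gene lengths are deposited too, per the file headers. Gene identifiers matched GENCODE M21 (54409 of 54532).

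The counts went into edgeR 4.0.16 (R 4.3.3). After filterByExpr and TMM scaling, group means were estimated over the 12 libraries in a single quasi-likelihood fit. The 5 contrasts were tested two-sided, with Benjamini-Hochberg adjustment over 13571 genes and a threshold of 0.05. SE is the absolute log2 fold change over the square root of F, and log2 CPM used a prior count of 2. Group means and SD are over 3 libraries. Whether groups overlapped is a description only, and the share of all genes without overlap is not given. All 9 genes are named in every comparison. From each list, up to 3 called genes with the largest change per direction are named, and for Cdh1, Ctnnb1 and Afdn the 3 most similar profiles. The genes and lists were chosen with earlier results of these data known, so the lists got no set test.

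Alternatives were RLE, upper quartile and total count scaling, DESeq2 1.42.0, voom with library quality weights and limma-trend (limma 3.58.1) on log2 of FPKM plus 1 or 0.1. Further ones were no filter, a replicate block, a loess length trend (span 0.5) removed with and without the block, only the groups compared, and each library left out. The list counts and correlations without wounded total replicate 1 were added after seeing the data. The scripts were tested on simulated data. Figures used matplotlib 3.10.9.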

Additional observations from a re-analysis of the deposited data

How the results depend on the processing

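Of the 9 genes, 3 were called between fractions of unwounded cells, and Cdh1, Ctnnd1 and Nectin4 remained called in all 12 alternatives and in all 12 fits without a library. The count of genes called was 4, Ctnna1 being added, with total count scaling, DESeq2, voom, FPKM plus 1, FPKM plus 0.1 and the length trend removed. It was 5 with only the groups compared in the fit, and 3 to 5 without a library. Ctnnd1 was called between fractions of wounded cells in all 12 alternatives and all 12 fits without a library. There the count of 1 became 3 with total count scaling, 3 with DESeq2, 7 with voom, 2 with no filter and 3 with the replicate block, and 1 to 5 without a library. For wounding in the total fraction the count of 1 became 0 with total count scaling, 2 with DESeq2, 3 with voom, 2 with FPKM plus 1, 2 with FPKM plus 0.1, 2 with the length trend removed, 2 with the length trend removed with the replicate block and 0 with only the groups compared. Without a library it was 0 to 2. For wounding in the cortical fraction the count of 0 became 1 with DESeq2, voom, no filter, the length trend removed with and without the replicate block, and only the groups compared, and 0 to 1 without a library. For the interaction it became 2 with voom (Ctnnb1 and Nectin4, chosen after their values were seen) and 0 to 1 without a library. The number of all genes called also differed between settings. It was 1928, 2124, 2116, 337 and 17 in the main fit, in the order of the 5 comparisons. Total count scaling gave 2051, 2723, 1812, 199 and 11, and removing the length trend 1434, 1323, 2402, 445 and 21. It is not given here for DESeq2, voom, FPKM, no filter, the replicate-block fits and only the groups compared. Those counts of the 9 thus have no share beside them. The causes were not tested.

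Signs changed only for values that were not called in those settings. Between fractions, Nectin2 in unwounded cells was 0.12 with total count scaling. In wounded cells Ctnna1 was 0.17 with total count scaling and 0.00758 with voom, and Afdn was -0.0195 with the length trend removed and -0.0211 with the length trend removed with the replicate block. For wounding in the total fraction, voom gave -0.0176 for Cdh1, -0.0214 for Cdh3 and -0.0689 for Afdn. For wounding in the cortical fraction Ctnna1 was -0.00727 with total count scaling. Nectin1 there was -0.00948 with RLE factors, -0.0227 with upper quartile factors, -0.0452 with total count scaling, -0.00958 with DESeq2, -0.00887 with FPKM plus 1, -0.00908 with FPKM plus 0.1, -0.0165 with no filter and -0.0175 with only the groups compared. The interaction of Afdn was 0.16 with voom. Without a library, the total-fraction values ran from -0.0616 to 0.19 for Cdh1, -0.0468 to 0.29 for Cdh3 and -0.00758 to 0.30 for Afdn. The cortical-fraction values ran from -0.11 to 0.0175 for Ctnnb1, -0.0199 to 0.0327 for Nectin1, -0.0104 to 0.12 for Nectin2 and -0.0556 to 0.22 for Afdn, and the interactions from -0.0527 to 0.30 for Cdh3 and -0.24 to 0.0864 for Afdn.

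Added to the fit of all libraries with no other change, the replicate block changed a count of calls only between fractions of wounded cells, where Cdh1 (adjusted p = 0.0403) and Ctnnb1 (adjusted p = 0.0249) were then also called by edgeR. Added to the fit with the length trend removed, it took the count in unwounded cells from 4 to 3 (Ctnna1, adjusted p = 0.0503). Deviations of same-numbered libraries had correlations of -0.0401 to 0.214 over 10722 genes. The sources used here do not say whether same-numbered libraries share a preparation, and the main fit did not pair them. Deviations from a mean of 3 libraries cannot settle whether they do. The block tied a number across all 4 groups, and a pairing of cortical with total libraries within a treatment was not fitted. With 3 libraries per group, the differences of Afdn were not detectable against its spread, except between fractions of wounded cells with voom (0.50, adjusted p = 0.0097). Total counts of at least 8980013 gave each of the 9 genes at least 210 counts, so that counting error was at most 6.90% of a value. This was small beside the spread of Afdn. It was not small beside the spread of every gene in every group. For Nectin4 in the wounded total libraries the SD was 0.270 CPM, for values of 14.7 CPM or more, which was below the counting error.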
